A study of Mus musculus with 6 samples.

Results

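The cytosolic ribosomal protein genes were compared between 2 regions of the mouse incisor, a tooth that keeps growing throughout life. The genes were chosen by name from the protein-coding rows of the deposited expression table: Rpl and Rps followed by a number, the P stalk genes Rplp0 to Rplp2, and Rpsa. The rule found 81 genes of the 23718 listed, 50 of the large (60S) and 31 of the small (40S) ribosomal subunit. Of these, 79 had a mean of at least 1 and were tested, and Rpl3l and Rpl39l fell below that level. Genes such as Fau and Rack1, whose products are also ribosomal proteins, and Rps3a1 and Rpl36al carry names outside the rule.

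RNA came from 1-month-old mice, 3 libraries for each region. Mesenchymal stem cell (MSC) libraries were made from Gli1-CreER;tdT mice and transit amplifying cell (TAC) libraries, from the dividing progeny of the stem cells, from Axin2-CreER;tdT mice. Both carry a tamoxifen-dependent Cre and a red fluorescent reporter, both were collected 1 day after tamoxifen, and the labels give C57BL/6 as the strain of both, while the methods speak of a mixed background. The marked cells were cut from sections by laser capture, so a library holds the RNA of whatever lay in the captured area, and the drivers and the regions cannot be told apart. Here and below, the values of a group are listed in the order of replicates 1, 2 and 3. The driver gene Gli1 had values of 256, 245 and 422 in MSC and 153, 141 and 396 in TAC, and Axin2 58.3, 47.98 and 12.01 in MSC and 56.8, 63.9 and 34.1 in TAC. The groups overlapped for both genes, with an adjusted p of 0.718 for Gli1 and 0.758 for Axin2 in limma.

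A ribosome is built from a large and a small subunit, each a core of ribosomal RNA clothed with proteins. Most of these proteins are made from single genes, are needed in equal numbers, and are broken down when they find no place in a subunit. Their mRNAs are known for a terminal oligopyrimidine start, a first C followed by a run of C and T, through which mTOR signalling and LARP1 control their translation. Growing and dividing cells make many ribosomes, and a few genes have duplicates (paralogs) that are used in particular tissues.

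The annotated starts show this feature in part of the group. RefSeq start windows on GRCm38.p6 were found for 61 of the 81 genes, 73 windows in all. On the strand of the gene, an annotated first base C followed by at least 4 C or T stood in 13 of the 73 windows (17.8%), in 2.30% of the windows of the other protein-coding genes of the table and in 2.51% of all windows. An unbroken run of at least 8 C or T within the 60 bases around the start was in 37 of the 73 (50.7%) and in 22.00% of the windows of the other genes. An annotated start can lie some bases from the one used in a cell, so a window without the letters says nothing about the mRNA. The windows of 6 genes described below that have the feature are printed with 15 bases before the start and 15 from it, 5′ to 3′, and the capitals mark the run of C and T that holds the start.
Rps6: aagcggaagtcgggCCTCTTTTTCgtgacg
Rps18: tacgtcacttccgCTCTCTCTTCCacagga
Rps27: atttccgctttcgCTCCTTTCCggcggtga
Rpl35: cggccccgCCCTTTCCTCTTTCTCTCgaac
Rpl35a: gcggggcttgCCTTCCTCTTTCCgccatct
Rplp2: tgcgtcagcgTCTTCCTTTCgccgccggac
They lie at chr4:86857353-86857382 on the minus strand (Rps6), chr17:33955651-33955680 on the minus strand (Rps18), chr3:90213634-90213663 on the minus strand (Rps27), chr2:39005117-39005146 on the minus strand (Rpl35), chr16:33056467-33056496 on the plus strand (Rpl35a) and chr7:141447636-141447665 on the plus strand (Rplp2). The windows of 3 paralogs described below begin with G at the annotated start and hold no capitals. Of their parents, Rps27 has the feature, while the windows of Rpl22 begin with G and that of Rpl39 with T and lack it as well.
Rps27l: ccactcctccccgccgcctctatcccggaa
Rpl22l1: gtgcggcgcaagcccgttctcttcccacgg
Rpl39l: ctcccaggcctttccggatttccggtggtc
They lie at chr9:66946071-66946100 on the plus strand (Rps27l), chr3:28805493-28805522 on the plus strand (Rpl22l1) and chr16:10170213-10170242 on the plus strand (Rpl39l). The log2 difference between TAC and MSC, described below, had a median of 0.99 over the 13 genes with such a start and 0.92 over the 46 tested genes with a window that lacked it. In replicates 1 and 2 these medians were 0.94 and 0.95.

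The deposited values are reads plus 1 divided by a size factor per library, so they compare libraries for a gene and not genes with each other. Estimated reads were 20203159 to 25567244 in replicates 1 and 2 and 59793645 and 108156380 in MSC3 and TAC3. Replicate 3 of both groups stood apart from replicates 1 and 2. Mitochondrial ribosomal RNA took 8.28% to 9.07% of the reads in replicates 1 and 2 and 0.236% and 0.112% in MSC3 and TAC3, and 1556 to 1908 listed genes were at 0 reads against 10170 and 6645. The main results below are therefore also given for replicates 1 and 2 and for replicate 3.

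Ribosomal protein genes took a larger share of the reads in each TAC library than in the MSC library of the same number. The 81 genes together held 1.93%, 1.92% and 4.48% in MSC and 3.76%, 3.78% and 7.52% in TAC. TAC3 had the highest share and MSC1 and MSC2 the lowest, and the groups overlapped, with MSC3 above TAC1 and TAC2. Of the protein-coding reads alone the 81 genes held 2.80%, 2.80% and 4.94% in MSC and 5.18%, 5.23% and 8.06% in TAC. On that base the groups did not overlap, though MSC3 came close to TAC1. The mean share of all reads was 2.78% ± 1.48 in MSC and 5.02% ± 2.16 in TAC (each SD, n = 3), which gives a ratio of 1.81, or 1.96 in replicates 1 and 2 and 1.68 in replicate 3. This is a description with no test. Leaving out 1 library moved the ratio between 1.36 (without TAC3) and 2.61 (without MSC3). In bulk RNA fewer cells of a type and less RNA per cell cannot be told apart.

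The ratio of TAC to MSC was nearly the same for large and small subunit genes. The large subunit genes held 1.25%, 1.25% and 2.77% in MSC and 2.42%, 2.44% and 4.64% in TAC, and the small subunit genes 0.674%, 0.670% and 1.71% in MSC and 1.34%, 1.34% and 2.87% in TAC. In replicates 1 and 2 the ratio of the group means was 1.94 for the large and 1.99 for the small subunit, and in replicate 3 it was 1.68 for both. Of all ribosomal protein reads, the large subunit genes had 65.05%, 65.2% and 61.8% in MSC and 64.4%, 64.6% and 61.8% in TAC. That balance differed more between replicate 3 and the others than between MSC and TAC of the same number.

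**Figure D1:**
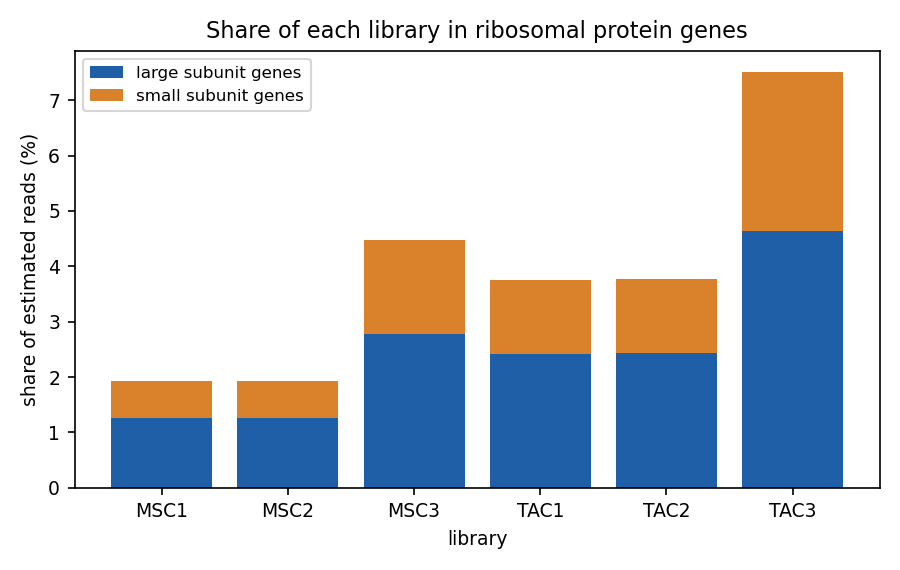
Share of the estimated reads of each library (percent, from 0) in the 50 large subunit (blue) and 31 small subunit (orange) genes, stacked, 1 bar a library. The bars reach 1.93%, 1.92% and 4.48% in MSC1 to MSC3 and 3.76%, 3.78% and 7.52% in TAC1 to TAC3, each TAC bar above the MSC bar of its number.

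Gene by gene, the estimated difference was in favour of TAC for every tested ribosomal protein gene, while none passed the adjusted threshold. The log2 difference, on the scale of log2(value + 1), was above 0 for 79 of 79 genes, beside 51.5% of all 15391 genes tested. This count stayed at 79 under the 3 other scalings between libraries, and was 78 without MSC1 or without MSC2, 77 without TAC3 and 78 with trends on GC content and transcript length removed. The median of these differences was 0.91, with quartiles of 0.78 and 1.02 and a range of 0.27 to 1.52, and the median of all genes was 0.026. In limma with Benjamini-Hochberg adjustment over all genes 0 of 79 passed 0.05, where 0.0390% of all genes were called higher in TAC and 0.422% in either direction, and the smallest adjusted p of a ribosomal protein gene was 0.139. At an unadjusted p under 0.05, 34 of 79 were higher in TAC and 0 in MSC, beside 5.42% of all genes that were higher in TAC. With the replicate number as a block, 33 of 79 passed the adjusted threshold, all higher in TAC (0.604% of all genes). A term for replicate 3 against the others gave 65 of 79 (5.22% of all genes). With replicates 1 and 2 averaged as 1 library 0 of 79 passed, with a smallest adjusted p of 0.998 in limma. In that fit no gene at all was called higher in TAC, so this count is not particular to the ribosomal protein genes. With the block, 0 of 79 passed once the trends on GC content and transcript length were also removed, where 1 of 14940 genes was called higher in TAC. The median difference was then 0.72, and 61 of 79 had an unadjusted p under 0.05, higher in TAC, beside 9.16% of all genes. With replicates 1 and 2 averaged 3 of 79 did, beside 1.82%.

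All 3 TAC values lay above all 3 MSC values for 43 of 79 genes, beside 12.3% of all genes. In 35 of the 36 other genes MSC3 was above both TAC1 and TAC2. The TAC value was the higher one in each of the 3 same-numbered pairs for 75 of 79, beside 24.6% of all genes. The large subunit had a median of 0.90 over 48 genes, 22 with an unadjusted p under 0.05 and 29 whose groups did not overlap. The small subunit had a median of 0.95 over 31 genes, 12 with an unadjusted p under 0.05 and 14 whose groups did not overlap. All 31 small subunit genes and 44 of 48 large subunit genes were higher in TAC in each pair.

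**Figure D2:**
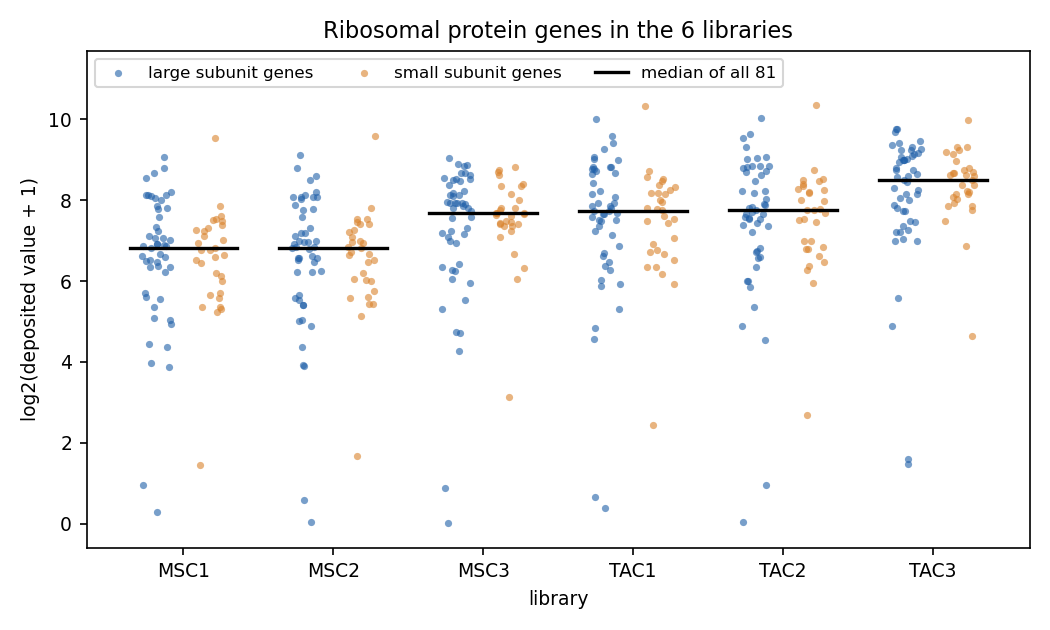
Deposited values on the scale of log2(value + 1) for the 81 genes in each library, large subunit genes in blue and small subunit genes in orange, 1 point a gene, with the median of all 81 as a black line. The median value was 112, 113 and 206 in MSC1 to MSC3 and 213, 214 and 361 in TAC1 to TAC3, so MSC3 lies level with TAC1 and TAC2. The lowest points in each library are those of Rpl3l, Rpl39l and Rps27l.

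**Figure D3:**
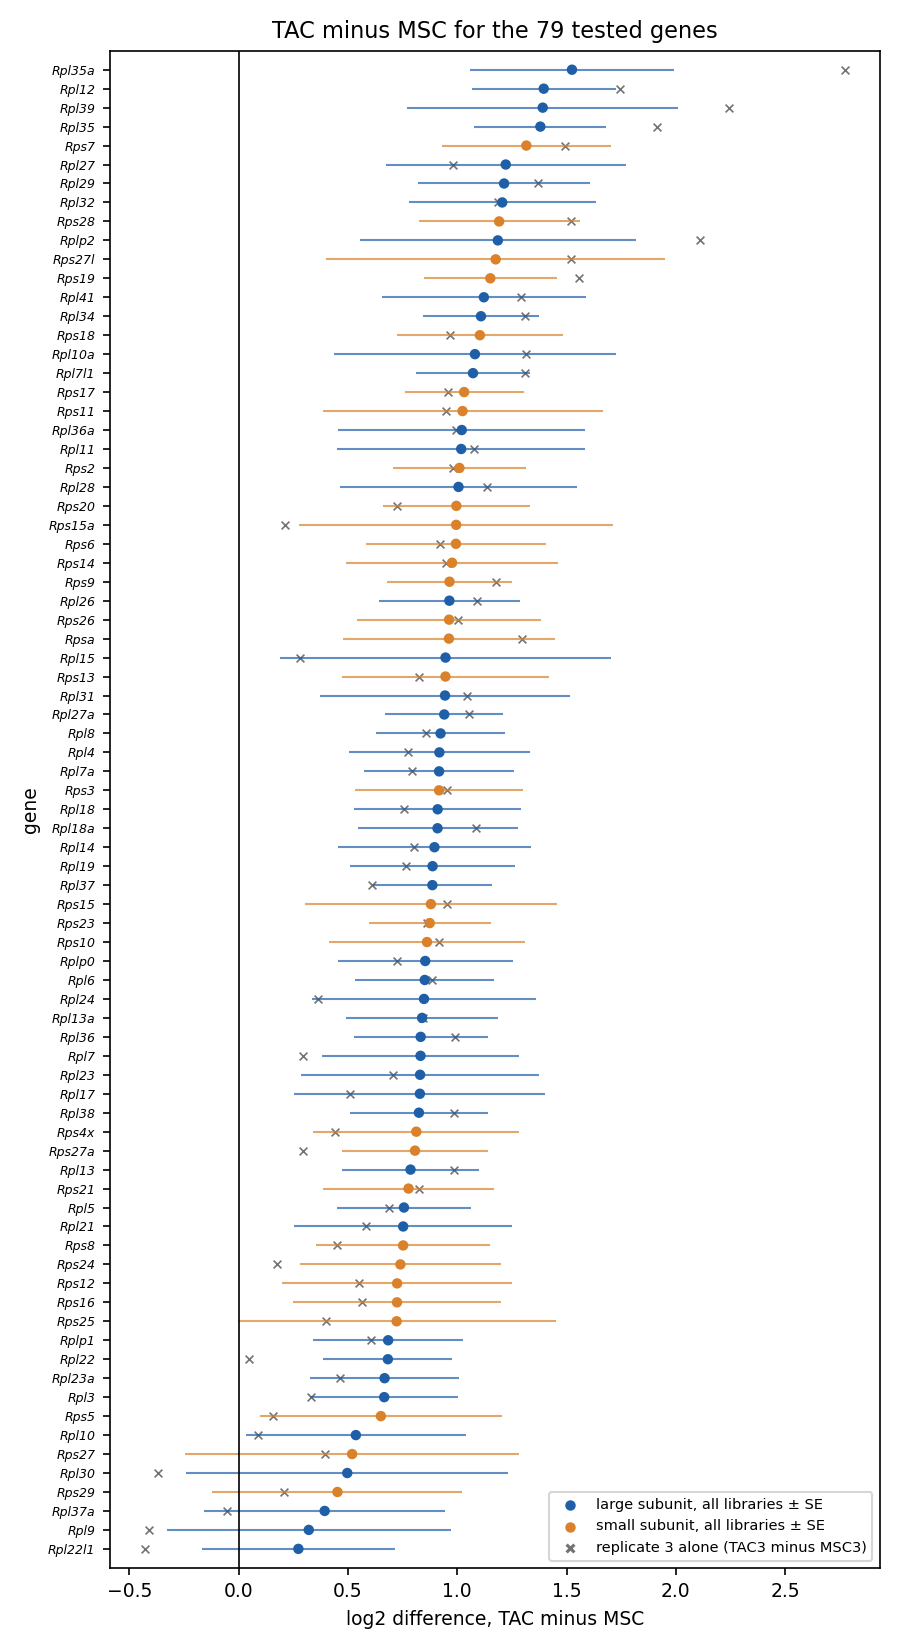
Log2 difference between TAC and MSC (horizontal axis) for the 79 tested genes in order of size, large subunit in blue and small subunit in orange, with the SE of the fit as a bar, and the difference between TAC3 and MSC3 alone as a grey cross. Every filled point lies right of 0, and 4 crosses lie left of it, those of Rpl22l1, Rpl9, Rpl30 and Rpl37a.

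The 5 genes with the largest log2 differences were Rpl35a, Rpl12, Rpl39, Rpl35 and Rps7. Rpl35a, a large subunit protein whose loss causes Diamond-Blackfan anaemia in people (chr16:33056453-33060189, coordinates on mm10 here and below), had values of 29.5, 31.5 and 25.4 in MSC and 58.3, 57.1 and 179 in TAC. The groups did not overlap, and TAC3 was far above the other TAC libraries. Its log2 difference was 1.52 ± 0.47 (SE), with an adjusted p of 0.259 in limma, and it was 0.985 without TAC3. Rpl12, which lies at the base of the ribosomal stalk (chr2:32961559-32965345), had values of 129, 127 and 151 in MSC and 299.6, 301 and 508 in TAC. No MSC library reached a TAC library, and the 3 MSC values were close together. The log2 difference was 1.40 ± 0.33 (SE) and its adjusted p in limma 0.159, and 0.0442 with the replicate number as a block, in a range of 1.63e-07 to 1 over the settings tried. Exons of Lrsam1 and of the small nucleolar RNA Snora65 overlap this gene, and without knowing whether reads were counted by strand they cannot be told apart there.

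Rpl39 and Rpl35 both encode proteins near the exit tunnel for the new peptide. Values of Rpl39 (chrX:37082520-37085402) were 13.6, 14.3 and 25.9 in MSC and 27.6, 28.7 and 126 in TAC, with no overlap, MSC3 just below TAC1 and TAC3 far above the rest. Its log2 difference was 1.39 ± 0.62 (SE) with an adjusted p of 0.444 in limma, and it was 0.68 without TAC3. Rpl35 (chr2:39001580-39005624, start window above) stood at 47.7, 45.1 and 45.5 in MSC and 97.2, 106 and 174 in TAC. Its 3 MSC libraries were nearly level and all TAC libraries were above them. It had the smallest adjusted p of the group, 0.139 in limma, for a log2 difference of 1.38 ± 0.30 (SE). Rps7, a small subunit protein (chr12:28630854-28635953), was at 129.6, 123 and 199 in MSC and 289.5, 306 and 562 in TAC, again with no overlap. The log2 difference was 1.32 ± 0.39 (SE) and the adjusted p in limma 0.237, and 0.0442 with the replicate number as a block, in a range of 3.06e-07 to 1 over the settings tried.

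The 5 smallest differences belonged to Rpl22l1, Rpl9, Rpl37a, Rps29 and Rpl30, and in all of them MSC3 was far above MSC1 and MSC2. Rpl9, a large subunit protein (chr5:65388364-65391444), had values of 87.2, 91.7 and 406 in MSC and 140.3, 149 and 306 in TAC. MSC3 was the highest of the 6, above TAC3. The log2 difference was 0.32 ± 0.65 (SE), and it was -0.059 without MSC1, -0.023 without MSC2 and -0.038 without TAC3. Rpl30 (chr15:34440505-34443640) showed the same order, with 31.6, 32.1 and 191 in MSC and 59.5, 63.6 and 147 in TAC, and a log2 difference of 0.50 ± 0.74 (SE). Rpl37a had 73.3, 73.8 and 244 in MSC and 115, 111 and 235 in TAC, and MSC3 and TAC3 were nearly level. Rps29, of the small subunit, had 63.1, 62.8 and 202 in MSC and 91.2, 97.4 and 233 in TAC, with each TAC library above the MSC library of its number. Their log2 differences were 0.39 ± 0.55 (SE) and 0.45 ± 0.57 (SE), and the adjusted p of the 4 genes in limma ran from 0.824 to 0.909. Without TAC3 the differences were 0.081 for Rpl30, 0.046 for Rpl37a and 0.020 for Rps29, and without MSC3 they were 1.346, 0.965 and 1.007. For Rpl30 the lowest value was 0.067, without MSC1. In replicates 1 and 2 all 4 were higher in TAC.

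The P stalk, made of Rplp0, Rplp1 and Rplp2, draws elongation factors to the large subunit. Rplp0 (chr5:115559467-115563727) had values of 538, 558 and 530.0 in MSC and 1032, 1042 and 875 in TAC, and the groups lay well apart. Its log2 difference was 0.85 ± 0.40 (SE) and the adjusted p in limma 0.465, and 0.0454 with the replicate number as a block, in a range of 1.69e-07 to 1 over the settings tried. Rplp1 had 278, 259.9 and 373 in MSC and 439, 449 and 569 in TAC, with no overlap and a log2 difference of 0.68 ± 0.34 (SE). Rplp2 (chr7:141447370-141451585) had 281, 269 and 60.6 in MSC and 452, 456 and 265 in TAC. TAC3 was just below MSC1 and MSC2, and both replicate 3 libraries were low for this gene. The log2 difference of Rplp2 was 1.19 ± 0.63 (SE), made of 0.72 in replicates 1 and 2 and 2.11 in replicate 3, and it was 0.46 without MSC3 and 1.56 without MSC1. The adjusted p of Rplp1 and Rplp2 in limma was 0.495 and 0.526.

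Rpl5 and Rpl11 carry the 5S ribosomal RNA into the large subunit and bind MDM2 when ribosome building fails. Rpl5 stood at 256, 271 and 239 in MSC and 454, 460.3 and 385 in TAC, and the groups did not overlap. Rpl11 stood at 88.8, 94.7 and 244 in MSC and 182, 184 and 517 in TAC, and MSC3 was above TAC1 and TAC2. The log2 differences were 0.76 ± 0.30 (SE) and 1.02 ± 0.57 (SE), with adjusted p of 0.391 and 0.544 in limma. That of Rpl11 was 0.52 without TAC3 and 1.486 without MSC3. For Rpl11 the adjusted p was 0.0442 with the replicate number as a block, in a range of 1.56e-06 to 1 over the settings tried. Rpl13a and Rps18, like Rplp0, are often used as reference genes for quantitative PCR. Rpl13a had values of 405, 389 and 393 in MSC and 677, 745 and 705 in TAC, with the 3 MSC libraries close together and all TAC libraries above them. Its log2 difference was 0.84 ± 0.35 (SE), the unadjusted p 0.0458 and the adjusted p in limma 0.407, and 0.0459 with the replicate number as a block, in a range of 2.07e-06 to 1 over the settings tried. Rps18 had 108, 114 and 206 in MSC and 249, 253 and 404 in TAC, again with each TAC library above each MSC library. A log2 difference of 1.10 ± 0.38 (SE) was fitted, with an unadjusted p of 0.0219 and an adjusted p in limma of 0.314, and 0.0442 with the replicate number as a block, in a range of 3.73e-07 to 1 over the settings tried.

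Of the small subunit genes, Rps6, the target of S6 kinase (chr4:86854660-86857412), had values of 183, 184 and 338 in MSC and 383, 369.9 and 642 in TAC. The groups did not overlap, though MSC3 came close to TAC2. The fit gave a log2 difference of 0.99 ± 0.41 (SE), an unadjusted p of 0.0447 and an adjusted p in limma of 0.404, and 0.0442 with the replicate number as a block, in a range of 2.84e-07 to 1 over the settings tried. Rps19, the gene most often altered in Diamond-Blackfan anaemia (chr7:24884371-24889806), had 137, 127 and 134 in MSC and 254, 257 and 397 in TAC, with nearly level MSC libraries and all TAC libraries above them. The log2 difference was 1.15 ± 0.30 (SE) and the adjusted p in limma 0.188. Rpsa, which also serves as a laminin receptor precursor (chr9:120127689-120132369), had 744, 764 and 412 in MSC and 1299, 1319 and 1014 in TAC. It was lower in replicate 3 in both groups, and the groups did not overlap. Rps27a, made as a fusion with ubiquitin, had 99.7, 90.3 and 177 in MSC and 195, 204 and 217 in TAC, with no overlap, and MSC3 came close to TAC1. Their log2 differences were 0.96 ± 0.48 (SE) and 0.81 ± 0.33 (SE), with adjusted p of 0.497 and 0.404 in limma.

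The 4 X-linked genes are Rpl10, Rps4x, Rpl36a and Rpl39, and Rpl39 is described above. Rpl10, which joins the large subunit late in its assembly, had values of 119, 127 and 355 in MSC and 210.5, 208 and 378 in TAC. MSC3 was nearly as high as TAC3. Rps4x had 181, 184 and 449 in MSC and 368, 363 and 609.7 in TAC and Rpl36a 51.2, 49.1 and 143 in MSC and 103, 104 and 285 in TAC, and MSC3 stood above TAC1 and TAC2 in both. The log2 differences were 0.54 ± 0.50 (SE) for Rpl10, 0.81 ± 0.47 (SE) for Rps4x and 1.02 ± 0.56 (SE) for Rpl36a, with adjusted p in limma of 0.735, 0.566 and 0.541. Without TAC3 they were 0.25, 0.57 and 0.54, and without MSC3 1.04, 1.24 and 1.52. For Rpl36a the adjusted p was 0.0459 with the replicate number as a block, in a range of 3.10e-06 to 1 over the settings tried. The 4 X-linked genes had a median log2 difference of 0.92, beside 0.91 for all 79.

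Within replicates 1 and 2 every tested ribosomal protein gene was higher in TAC. All 79 passed the adjusted threshold in a limma fit of these 4 libraries, all higher in TAC, beside 20.0% of all genes. Their log2 differences had a median of 0.94, a range of 0.58 to 1.39 and an SD over genes of 0.16, where the SD over all genes was 0.77. The order of the genes by value was nearly the same, with Spearman's rho of 0.995 between MSC1 and MSC2 and 0.989 between MSC1 and TAC1 over the 79 genes, a description since the genes share each library. No label says that replicates 1 and 2 came from separate preparations, so this p measures the spread between these libraries.

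Replicate 3 had a similar median and a wider range. TAC3 minus MSC3 had a median of 0.86 and ran from -0.43 to 2.77, above 0 for 75 of 79 genes, beside 52.3% of all genes. It was at least 1 for 24 of 79, beside 27.8% of all genes. The SD over the 79 genes was 0.56, where the SD over all genes was 1.65, so the spread was wider than in replicates 1 and 2 for all genes too. The 4 genes below 0 were Rpl22l1, Rpl9, Rpl30 and Rpl37a. An interaction term in limma set this difference against that of replicates 1 and 2, and 45 of 79 genes had an adjusted p under 0.05, beside 57.2% of all genes. Replicate 3 is 1 library a group, assumed to vary like replicates 1 and 2, so the p compares these libraries. Of the 45, 28 had a smaller and 17 a larger difference in replicate 3, while of the 8796 called among all genes 5207 had a larger one. The split was 38 and 10 with median-ratio scaling, 38 and 13 after quantile normalization and 33 and 12 with scaling to the other protein-coding genes. Among all genes called, 4877 of 8903, 4180 of 7666 and 5108 of 8905 had a larger difference in these fits. Across the 79 genes the differences of both sets had a Pearson correlation of 0.23, again a description.

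Within a group, most of these genes also stood at another level in replicate 3 than in the others. Replicate 3 was higher than the mean of replicates 1 and 2 by a median of 0.89 on the log2 scale in MSC and 0.77 in TAC, where the medians of all genes were -0.55 and -0.20. It was higher for 65 of 79 genes in MSC and 66 in TAC. The shift of a gene in MSC and in TAC had a Pearson correlation of 0.77 across the 79 genes. Against that direction, 9 genes were lower in replicate 3 in both groups, Rpl13a, Rpl29, Rpl3, Rpl36, Rpl5, Rplp0, Rplp2, Rps23 and Rpsa. Rpl29 for example had 160.3, 157 and 80.7 in MSC and 346, 354 and 211 in TAC. Across the sets the order of the genes by value had a rho of 0.65 between MSC1 and MSC3 and 0.76 between TAC1 and TAC3. Mitochondrial ribosomal RNA and depth moved with this split, and their part in it was not tested.

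**Figure D4:**
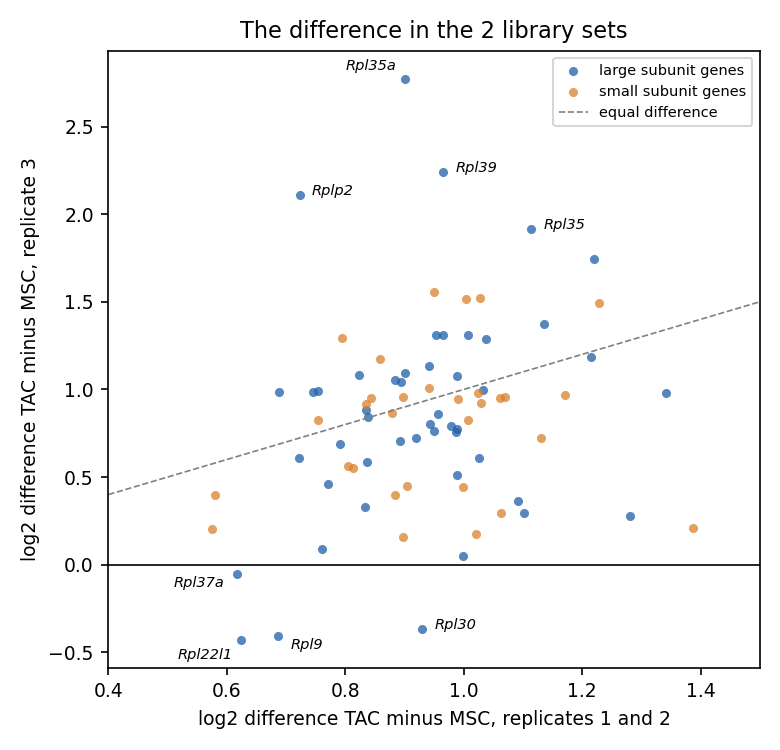
Log2 difference between TAC and MSC in replicates 1 and 2 (horizontal axis) against that in replicate 3 (vertical axis) for the 79 tested genes, large subunit in blue and small subunit in orange, with a dashed line where both are equal. Points span 0.58 to 1.39 across and -0.43 to 2.77 up, and the 8 labelled genes are the 4 below 0 and the 4 highest in replicate 3 (Rpl35a, Rpl39, Rplp2 and Rpl35).

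Paralogs were followed as the log2 ratio of their value to that of the parent gene in the same library, with 1 added to both values, which moves the ratio of weakly expressed paralogs. Gene length was not divided out, so the ratio is compared between libraries and is not a relative level. Of the pairs looked for, 6 were in the table, and an exact permutation test of 3 against 3 libraries cannot go below 0.1. Rpl22l1, the relative of Rpl22 that rises in mice without Rpl22 (chr3:28805436-28807424), had values of 14.8, 13.8 and 38.8 in MSC and 22.7, 22.5 and 28.6 in TAC. Rpl22 itself had 95.3, 93.98 and 121 in MSC and 191, 189.7 and 126 in TAC. The log2 ratio was -2.61, -2.68 and -1.62 in MSC and -3.02, -3.02 and -2.10 in TAC, lower in TAC in each same-numbered pair and higher in replicate 3 than in replicates 1 and 2 of both groups. The group means were -2.30 ± 0.59 in MSC and -2.71 ± 0.53 in TAC (SD, n = 3 each), and the difference of -0.41 had an exact two-sided p of 0.5 (0.75 adjusted over the 6 pairs). Within the 3 same-numbered pairs it was -0.41, -0.34 and -0.48, with an exact paired p of 0.25, the smallest that 3 pairs allow. It was -0.72 without TAC3 and -0.068 without MSC3.

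Rps27l, which p53 is known to induce (chr9:66946086-66949516), had estimated reads of 64, 75 and 1155 in MSC and 202, 227 and 6306 in TAC. Its values were 1.73, 2.20 and 7.69 in MSC and 4.44, 5.47 and 23.9 in TAC, and those of Rps27 51.2, 46.5 and 224 in MSC and 70.7, 76.4 and 295 in TAC. The log2 ratio to Rps27 was -4.26, -3.89 and -4.69 in MSC and -3.72, -3.58 and -3.57 in TAC, and the 3 TAC ratios were above the 3 MSC ratios. The means were -4.28 ± 0.40 in MSC and -3.62 ± 0.083 in TAC (SD, n = 3 each), a difference of 0.66 with an exact p of 0.1, the smallest this design allows (0.3 adjusted). This difference was 0.91 with nothing added to the values and 0.062 with 10 added. Rpl39l, known from testis (chr16:10170226-10174911), had estimated reads of 34, 16 and 123 in MSC and 26, 38 and 531 in TAC. Its value stayed between 0.493 and 2.02, while the values of Rpl39 above were higher in TAC. The log2 ratio to Rpl39 was -2.91, -3.36 and -3.88 in MSC and -4.17, -3.94 and -5.40 in TAC, a difference of -1.12 with an exact p of 0.1 (0.3 adjusted). With nothing added, Rpl39l stood at 6.88%, 3.44% and 3.19% of the value of Rpl39 in MSC and 2.14%, 3.25% and 1.599% in TAC. The groups then overlapped, with TAC2 above MSC3, and the difference was -0.92 on the log2 scale with an exact p of 0.2. With 1 added it ran from -1.40 (without TAC2) to -0.67 (without TAC3). The exact paired p was 0.25 for Rps27l and for Rpl39l.

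In replicates 1 and 2 Rpl7l1 kept nearly the same ratio to Rpl7. Values of Rpl7l1 (chr17:46773907-46782672) were 19.8, 19.7 and 18.2 in MSC and 38.4, 40.04 and 46.5 in TAC, with no overlap, and those of Rpl7 193, 190.1 and 468 in MSC and 407, 416 and 573 in TAC. The log2 ratio was -3.22, -3.21 and -4.61 in MSC and -3.38, -3.34 and -3.60 in TAC, slightly lower in TAC in replicates 1 and 2 and higher in replicate 3, and its difference of 0.24 had an exact p of 1. Rpl7l1 alone had a log2 difference of 1.07 ± 0.26 (SE), with an unadjusted p of 0.00421 and an adjusted p of 0.17 in limma. Rpl3l, known from striated muscle, had estimated reads of 7, 0 and 0 in MSC and 13, 0 and 470 in TAC, beside Rpl3 values of 296, 294 and 279.5 in MSC and 521, 530.5 and 352 in TAC. With 0 reads in 3 libraries no fold is given. Rps4l, listed as a processed pseudogene and not counted among the 81, had a log2 ratio to Rps4x that differed by -0.95, with an exact p of 0.3.

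**Figure D5:**
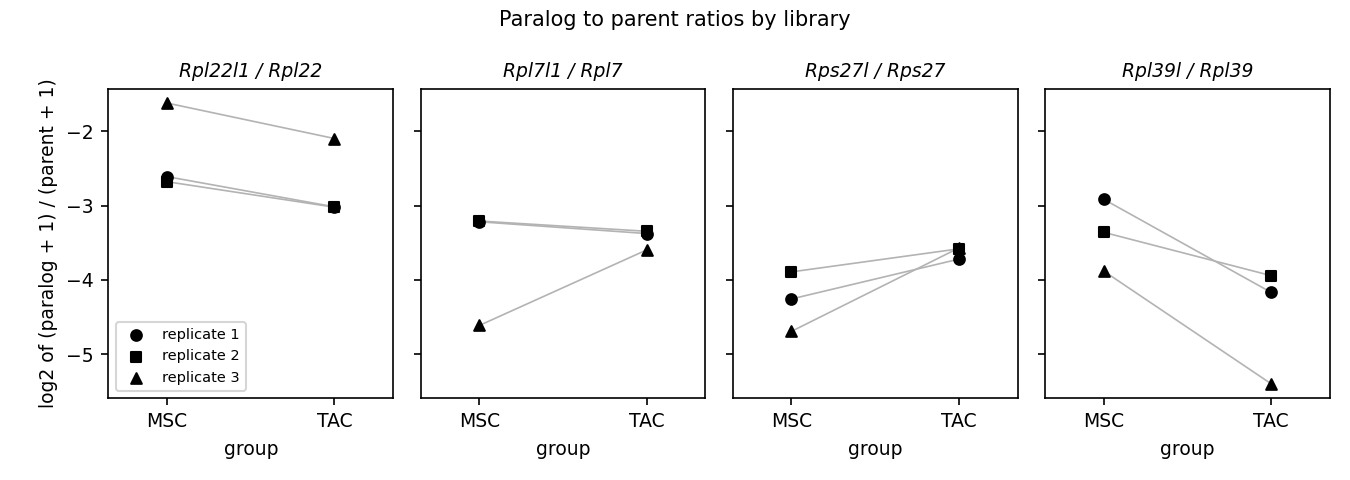
Log2 ratio of 4 paralogs to their parent genes, with 1 added to both values, in MSC and TAC, 1 point a library with replicates 1, 2 and 3 as circles, squares and triangles and same-numbered libraries joined. The Rpl22l1 and Rpl39l lines fall in all 3 pairs, the Rps27l lines rise in all 3, and the Rpl7l1 lines go both ways.

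Ribosomal protein genes have many processed copies in the genome, and short reads can be split between them. A copy among annotated pseudogenes, at 95% identity or more over at least 75 bases, was found for 77 of 81 genes, with a median of 5 and a highest number of 62 for Rpl21. Reads on the 148 listed ribosomal protein pseudogenes came to 3.62%, 3.31% and 4.87% in MSC and 3.26%, 3.33% and 4.85% in TAC of the reads on the 81 genes. Those shares were higher in replicate 3 of both groups. The number of copies and the log2 difference had a Spearman's rho of -0.020 across the 79 genes, a description. Exons of another gene overlap 38 of the 79. The median log2 difference was 0.91 over those 38 and 0.90 over the other 41.

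The other lists of protein synthesis genes had medians in the same direction. Of 14 elongation factors and other mRNAs known for an oligopyrimidine start, 0 passed the adjusted threshold in limma and 7 had an unadjusted p under 0.05, all higher in TAC (5.42% of all genes), with a median log2 difference of 0.85. With the replicate block 4 of the 14 passed (0.604% of all genes), among them Pabpc1, Naca and Rack1. With replicates 1 and 2 averaged 0 did, as no gene at all was called higher in TAC there. Rack1, a small subunit protein whose name lies outside the rule, had values of 207, 202 and 263 in MSC and 473, 465 and 554 in TAC, and each TAC library was above each MSC library. Its log2 difference was 1.15 ± 0.31 (SE), with an adjusted p of 0.197 in limma and 0.0412 with the block, in a range of 1.05e-07 to 0.9998 over the settings tried. Fau, made as a fusion with a ubiquitin-like protein, had 100.2, 102 and 178 in MSC and 149, 153 and 190.1 in TAC. In Fau, MSC3 was above TAC1 and TAC2. Eef1a1, which brings transfer RNA to the ribosome, had 979.5, 1017 and 2321 in MSC and 1917, 1916 and 2724 in TAC, with MSC3 above TAC1 and TAC2 as in many ribosomal protein genes.

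The factors that build ribosomes had a smaller median. Of 52 ribosome biogenesis genes, 0 passed the adjusted threshold in limma, 8 had an unadjusted p under 0.05, all higher in TAC, beside 5.42% of all genes, and the median log2 difference was 0.49, with 43 of 52 above 0. The nucleolar protein Npm1 had values of 116, 120.1 and 159 in MSC and 271, 281 and 269 in TAC, with no overlap, and Fbl, the methyltransferase of ribosomal RNA, 20.8, 22.5 and 28.5 in MSC and 41.2, 39.4 and 56.9 in TAC. Of 22 genes of RNA polymerase I and its regulation, 0 passed and 1 (Mycn) had an unadjusted p under 0.05, a share near that of all genes. The median over the 22 was 0.58, and 0.21 in replicates 1 and 2. Myc, a driver of ribosome production, had 9.25, 9.01 and 12.5 in MSC and 10.7, 8.66 and 4.17 in TAC and overlapped. Of 78 mitochondrial ribosomal proteins, the separate set that serves the ribosome of the mitochondrion, 0 passed and 8 had an unadjusted p under 0.05, all higher in TAC, beside the same 5.42% of all genes, with a median of 0.68. In replicates 1 and 2 that median was 0.56, beside 0.94 for the cytosolic genes, and in replicate 3 it was 1.13, beside 0.86. The difference between these lists was not tested.

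Some markers of proliferation and of smooth muscle also differed between the groups. Of 6 proliferation genes, 1 passed the adjusted threshold (Cdk1) and 5 had an unadjusted p under 0.05, all higher in TAC, beside 0.0390% and 5.42% of all genes, and their summed values were 128 to 216 in MSC and 319 to 992 in TAC. With the replicate block 3 of them passed, Cdk1, Mki67 and Mcm2 (0.604% of all genes), and with replicates 1 and 2 averaged none of the 6 did, as no gene was called higher in TAC. Over the settings tried the adjusted p of Cdk1 in limma ran from 5.05e-06 to 0.824. Of 4 tested smooth muscle genes, 3 passed (Acta2, Myh11 and Tagln), all higher in MSC, beside 0.422% of all genes in either direction, and the sum over 5 was 313 to 445 in MSC and 2.66 to 12.4 in TAC, with Cnn1 and Des at 0 in some library. With the block Acta2 no longer passed, at an adjusted p of 0.0701 in limma, in a range of 2.47e-07 to 0.235 over the settings tried. Myh11 and Tagln still passed with the block. Over the settings their adjusted p in limma ran from 3.83e-08 to 0.235 for Myh11 and from 1.33e-06 to 0.275 for Tagln. With MSC1, MSC2, TAC1 or TAC2 left out, no gene of any list was called in either direction. Sums were 148 to 210.4 in MSC and 74.7 to 95.3 in TAC for 6 endothelial genes, 58.00 to 155 in MSC and 36.7 to 97.8 in TAC for 6 macrophage genes and 20.4 to 43.2 in MSC and 6.20 to 19.2 in TAC for 5 Schwann cell genes. They were 2160.0 to 14615 in MSC and 11369 to 15732 in TAC for 5 odontoblast genes, 293 to 3349 in MSC and 2066 to 3050.5 in TAC for 6 dental epithelium genes and 37.2 to 78.95 in MSC and 56.3 to 75.8 in TAC for 5 erythroid genes. Amelx and Ambn had by far the largest values of the dental epithelium genes, and their groups overlapped. In the other 4 of these 6, Krt14, Krt5, Epcam and Cdh1, all TAC values lay above all MSC values, beside 12.3% of all genes. The median log2 difference of the 6 was 0.94, and 0.63 in replicates 1 and 2. MSC3 had the lowest sum of the odontoblast and of the dental epithelium genes, and Epcam and Cdh1 were at 0 reads in it. Dmp1, Adgre1, Sox10, Ncmap and Alas2 were also at 0 in at least 1 library. In these 6 lists 0 genes passed the adjusted threshold in limma and 4 had an unadjusted p under 0.05, 3 higher in MSC and 1 in TAC, where 1824 of all 15391 genes had one in either direction. The part of these cells in the higher ribosomal protein levels was not tested.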

How the data were processed

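Libraries were made from laser-captured incisor mesenchyme, 3 for MSC and 3 for TAC. The submitters' processing notes name CASAVA 1.8.2, TopHat2 2.0.8, Partek and mm10. The methods speak of RPKM, but the deposited values behave as a signal that the authors made by adding 1 to estimated reads and then scaling each library. How reads were counted, and whether by strand, is not given in the sources used here. Reads were recovered as the value over the lowest of its library, minus 1. Between 62.5% and 72.6% of low values came out whole within 0.02, so no count model was used.

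Values were taken as log2(value + 1) and fitted with limma 3.58.1 in R 4.3.3, with the variance trend, on the 15391 genes whose mean was 1 or more, two-sided, with Benjamini-Hochberg adjustment over all of them and a threshold of 0.05. Adding 1 makes the fold of weakly expressed genes look smaller. Paralog ratios used an exact permutation test in scipy 1.17.1. Copies were found with BLAST+ 2.17.0 against GENCODE pseudogenes, and start windows came from RefSeq.

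Deviations from the group means of same-numbered libraries correlated at 0.48, 0.47 and 0.52, so fits with the number as a block are given beside the main ones, which have none. MSC1 with TAC2 and MSC2 with TAC1 gave 0.46 and 0.48, so what is shared is mainly replicate 3 against the others. MSC1 and MSC2, and TAC1 and TAC2, differed by more than counting error in a chi-square test and were kept as separate libraries, as labelled. Amplified reads are not independent molecules, so this does not show that they came from separate samples. The methods give 3 mice a group and speak of 3 pairs of samples in the sequencing, without saying what made a pair. No label ties a library to a mouse.

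The named genes were the 5 largest and 5 smallest differences, paralogs and parents, the P stalk, the 5S proteins, Rps6, Rps19, Rpsa, Rps27a, Rpl13a, Rps18 and the X-linked genes. The genes, the lists and this rule were chosen with earlier results of these data known. Alternatives changed the pseudocount, filter, scaling, variance model, block and libraries used.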

Additional observations from a re-analysis of the deposited data

Results flagged for a closer look

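For 45 of the 79 tested ribosomal protein genes, the interaction term in limma between the group and replicate 3 had an adjusted p under 0.05. The same held for 57.2% of all genes. Replicate 3 is 1 library a group and the error is the spread between replicates 1 and 2 alone, which may be technical, so these p-values compare the libraries and do not show that the difference varies between animals. Among the genes described here, the difference was larger in replicate 3 with an adjusted p of 0.000346 for Rpl12, 0.000791 for Rpl35, 3.10e-05 for Rpl35a, 0.000377 for Rpl39, 9.82e-06 for Rplp2, 0.00059 for Rps19, 0.021 for Rps7 and 7.37e-05 for Rpsa. It was smaller in replicate 3, or below 0 there, with an adjusted p of 0.000242 for Rpl10, 6.59e-05 for Rpl22, 0.00167 for Rpl22l1, 0.000185 for Rpl3, 7.30e-05 for Rpl30, 0.000345 for Rpl37a, 3.27e-05 for Rpl7, 4.91e-05 for Rpl9, 0.00875 for Rplp0, 0.000426 for Rps27a, 0.0114 for Rps29 and 0.000143 for Rps4x. Rplp2 had the smallest of these p-values, with log2 differences of 0.72 in replicates 1 and 2 and 2.11 in replicate 3. Rpl22l1, Rpl9, Rpl30 and Rpl37a had differences above 0 in replicates 1 and 2 and of -0.43, -0.41, -0.37 and -0.054 in replicate 3. Replicate 3 also differed from replicates 1 and 2 in depth and in mitochondrial ribosomal RNA in both groups, and their part in these differences was not tested.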

How the results depend on the processing

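The count of ribosomal protein genes past the adjusted threshold depended on how replicate 3 was treated. From 0 (0.0390% of all genes called higher in TAC) it went to 33 with the replicate block (0.604%). It was 65 with a term for replicate 3 against the others (5.22%) and 79 in replicates 1 and 2 alone (20.0%). With trends on GC content and length removed it was 0, where 27 of 14940 genes were called higher in TAC. With the block as well it was 0, where 1 of 14940 was. These trends, the term for replicate 3, the paralog ratios with nothing added, their paired test and the shares with 1 library left out were chosen after seeing the data. At an unadjusted p under 0.05 the 34 genes became 75 with the block (9.43% of all genes), 76 with the term (14.2%), 79 in replicates 1 and 2 alone (23.4%), 61 with the block and trends removed (9.16%), 21 after quantile normalization (6.73%) and 3 with replicates 1 and 2 averaged as 1 library (1.82%), and leaving out 1 library gave 12 (without MSC2, 4.37%) to 68 (without MSC3, 8.63%). The median log2 difference was 0.84 with a pseudocount of 10, 0.84 after quantile normalization, 0.72 with the trends removed in both fits and 0.68 (without TAC3) to 1.20 (without MSC3) with 1 library left out. The count of genes past the interaction between the group and replicate 3 was 16 without the variance trend, where 7581 of 15391 genes passed.

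The ratio of mean shares ran, with 1 library left out, from 1.36 to 2.61 for all 81 genes, 1.38 to 2.53 for the large and 1.31 to 2.75 for the small subunit. Of the 30 tested genes described by name, leaving out 1 library moved the log2 difference by over 1.5 times for 15, 12 of them without TAC3 and 10 without MSC3, and 3 changed direction in some setting. Rpl22l1 was at -0.13 with the trends removed, with and without the block. With 1 library left out Rpl9 ran from -0.059 to 1.04 and Rps27 from -0.14 (without TAC3) to 1.24. The TAC minus MSC difference of the log2 ratio to the parent also changed sign for 2 paralogs. For Rpl3l it was 2.10 with nothing added to the values and 0.11 with a pseudocount of 0.5, and ran from -0.76 to 0.26 with 1 library left out, but with 0 reads in 3 libraries it is no measure of a fold. For Rpl7l1 it was -0.15 in replicates 1 and 2 and ran from -0.23 to 0.48. The causes of these changes were not tested. With the replicate block, 8 of the 30 passed the adjusted threshold (0.604% of all genes, higher in TAC), Rpl11, Rpl12, Rpl13a, Rpl36a, Rplp0, Rps18, Rps6 and Rps7. Some of the 30 were named for the size of their difference. Rpl39l had 16 reads in MSC2, so its ratio rests on few reads.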

Other observations

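Genes outside those described above, chosen after their values were seen, also had wide gaps between replicate 3 and the others. Rpl15, of the large subunit, had values of 32.9, 41.4 and 212 in MSC and 88.3, 94.2 and 258 in TAC, and the difference between TAC and MSC was 1.28 on the log2 scale in replicates 1 and 2 and 0.28 in replicate 3. Rps15a, of the small subunit, had 38.6, 42.1 and 223 in MSC and 104, 109.9 and 259 in TAC, with differences of 1.39 and 0.21. Rps25 had 39.96, 47.5 and 203 in MSC and 80.2, 82.3 and 269 in TAC. In all 3 genes MSC3 was above TAC1 and TAC2, and TAC3 was the highest library. Rpl8 was level across the sets, with 231, 236 and 245 in MSC and 449.8, 458 and 445 in TAC and a log2 difference of 0.92 ± 0.30 (SE).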
